A study of Mus musculus with 4 samples.

Results

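The genes described here are 32 genes of blood vessels: 14 known from endothelial cells, 7 grouped as pericyte genes and 11 from the contractile apparatus of smooth muscle. The pericyte group includes Pdgfb, whose product is made by endothelium and acts on pericytes, so its counts, sum and median are not of pericyte transcripts alone. They were chosen by gene symbol, and all 32 were found among the 32681 genes of the deposited table. RNA was sequenced from 4 primary neuron cultures prepared from the neocortex of wild-type CD-1 mice at embryonic day 13. Of these cultures, grown in Neurobasal medium with B27, 2 had been transfected with control shRNA, a short hairpin RNA, and another 2 with DcpS shRNA. DcpS is the scavenger decapping enzyme that hydrolyses the cap remaining after mRNA decay. No other genetic change or agent is named for either group. The comparison addresses which transcripts differ with DcpS shRNA, and here it is read for vascular genes only. The titles of both DcpS shRNA cultures carry the same hairpin label, shDcPS-2. Effects of that hairpin on other RNAs were not tested apart from those of DcpS loss.

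Endothelial cells line blood vessels, and in brain their claudins and transporters form the blood-brain barrier. Pericytes wrap the capillary wall and are recruited by the growth factor PDGF-B, made by endothelium, acting on its receptor PDGFRB. Smooth muscle cells of larger vessels contract through alpha-actin, myosin and their regulators calponin, caldesmon, transgelin and tropomyosin. Several of these contractile genes are also active in fibroblasts and, at lower specificity, in neural cells. The neocortex of the embryo is vascularised, so a culture made from it can carry over vascular cells.

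The libraries held 17754768 to 21793685 reads, and where none of a gene was read, up to 3 reads, or 2.73 to 3.35 normalised reads, are still possible (counting error only). Normalised reads are reads divided by the size factor of each library. Dcps, the targeted gene, had 499.8 and 506.6 normalised reads in the controls against 114.5 and 119.6 with DcpS shRNA, so 23.3% ± 0.716 (SD, n = 2) of the control mean was left. Neuron markers were abundant, and their summed level lay between 97.0% and 100.4% of the control mean in all 4 libraries. The labels number the cultures 1 and 2 in each group but do not say that they came from separate litters. The p-values therefore describe only how these samples vary, and that variation may be technical.

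Most endothelial genes were close to the detection limit, while pericyte and contractile genes ranged from 0.909 to 1351 normalised reads. Of the 32 genes, 23 had enough reads to be tested: 7 endothelial, all 7 pericyte and 9 contractile. With DcpS shRNA 5 of these 23 fell and 1 rose (limma, Benjamini-Hochberg adjusted p under 0.05), against 3.65% lower and 2.14% higher over all 18110 genes tested. The genes that fell were Kdr, Pdgfrb, Acta2, Cnn2 and Cald1, and Mcam rose. With neither trend nor robust estimation limma called 0 genes in the whole table (2538 at an unadjusted p under 0.05), so all 6 calls end there. Both DcpS shRNA libraries lay below both controls for 12 of the 23 genes and above both for 4. Over all genes tested these shares were 24% and 24.4%. Of the same members edgeR called 7 of 23, against 5.95% of all genes, and DESeq2 4 of the 13 it gave an adjusted p, against 3% of all genes. The median log2 fold change was −0.36 over the 23 genes and 0.00074 over all genes tested.

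**Figure D1:**
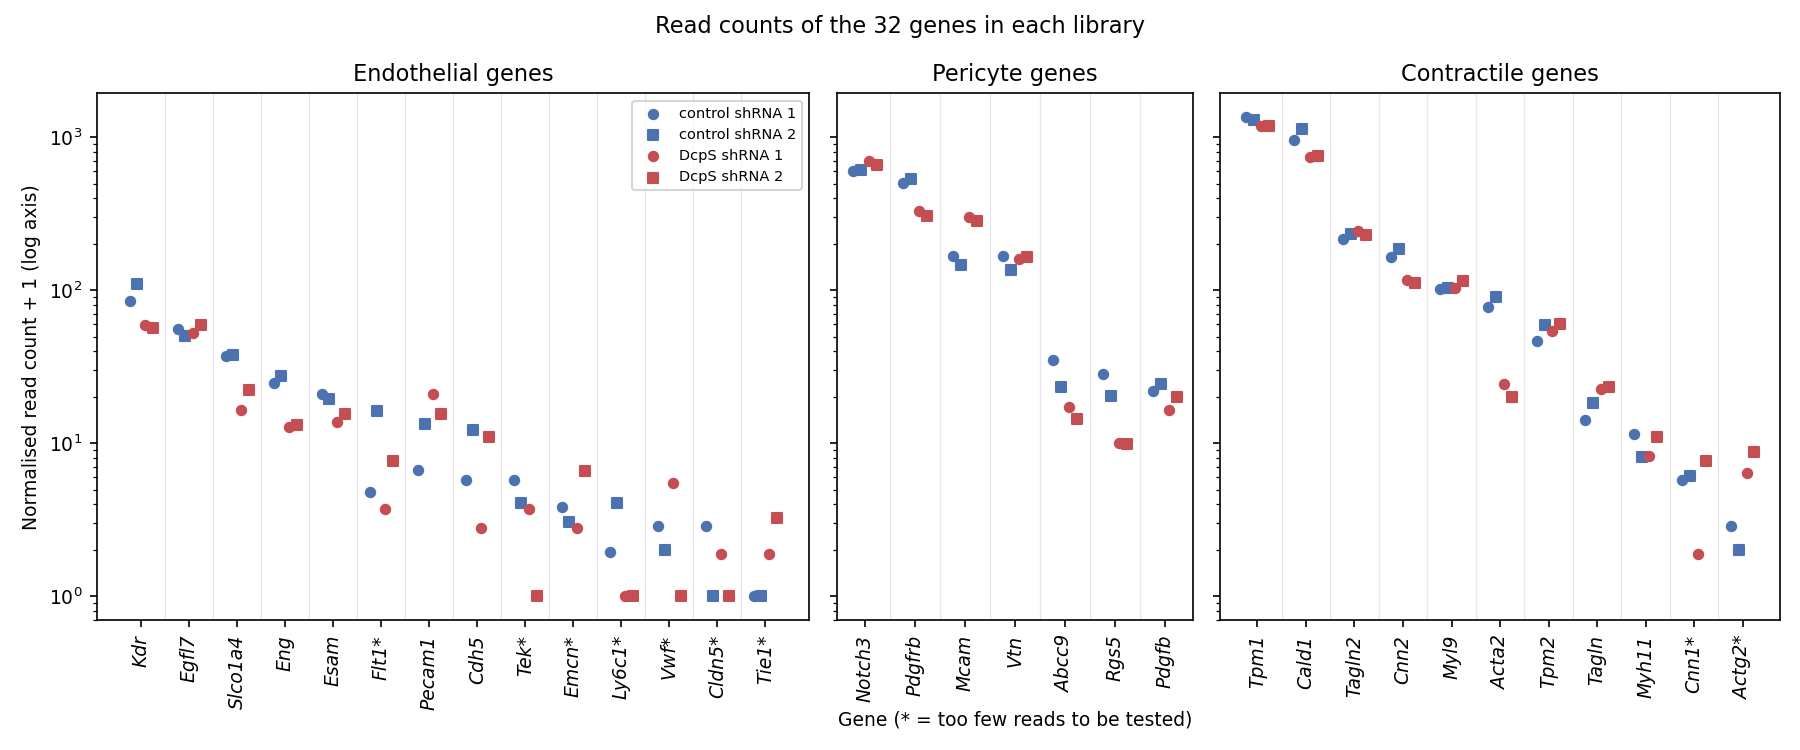
Normalised read count plus 1 (vertical log axis) of the 32 genes in each of the 4 libraries, with controls in blue and DcpS shRNA in red, in panels for endothelial, pericyte and contractile genes. The 2 red points of Acta2, Pdgfrb, Cnn2, Cald1 and Kdr lie below both blue points and those of Mcam above, and the 9 starred genes had too few reads to be tested.

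The endothelial genes were the lowest of the 3 classes, and 1 of the 7 tested fell. Kdr, the main receptor for the growth factor VEGF-A (chromosome 5, 75932827 to 75978458, minus strand, GRCm38, GENCODE M21), had 84.6 and 108.7 normalised reads in the controls. With DcpS shRNA it had 58.1 and 55.9. The groups did not overlap, and the control libraries differed from each other by more than the DcpS shRNA libraries did. The mean went from 96.6 ± 17.1 to 57.0 ± 1.61 (SD, n = 2 per group), a log2 fold change of −0.74 (SE 0.18, limma, adjusted p 0.0253). The call rests on control 2, without which the adjusted p was 0.277, and it was also lost with DESeq2 (0.217).

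Eng, Slco1a4 and Esam also stood lower in both DcpS shRNA libraries without passing the test. Eng, or endoglin, a co-receptor for TGF-beta and BMP ligands, had 23.8 and 26.7 normalised reads in the controls against 11.8 and 12.3 with DcpS shRNA. The log2 fold change of Eng was −1.0 (95% confidence interval −1.71 to −0.30, adjusted p 0.0965). Slco1a4, an organic anion transporter of the blood-brain barrier, had 36.1 and 36.9 in the controls against 15.4 and 21.2 with DcpS shRNA. These groups lay apart, with a log2 fold change of −0.97 (−1.58 to −0.37) and an adjusted p of 0.0577. Slco1a4 passed at 0.0348 without DcpS shRNA 2 and at 0.0465 without a filter on low counts.

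The remaining endothelial genes that were tested went both ways. Egfl7, a secreted protein of vessel walls that hosts the microRNA miR-126 in an intron, had 55.1 and 49.2 normalised reads in the controls against 51.8 and 58.1 with DcpS shRNA. The values overlapped, with a 95% confidence interval for the log2 fold change of −0.36 to 0.50. Esam, a junctional adhesion molecule, had 19.95 and 18.5 in the controls against 12.7 and 14.5 with DcpS shRNA (−0.47, −1.20 to 0.26). Pecam1, the adhesion molecule CD31, had 5.70 and 12.3 in the controls against 19.99 and 14.5 with DcpS shRNA. It was the only tested endothelial gene besides Egfl7 with a positive log2 fold change (0.93, 0.0090 to 1.86, adjusted p 0.263). Cdh5, the cadherin of endothelial junctions, had 4.75 and 11.3 in the controls against 1.82 and 10.1 with DcpS shRNA, so its spread within each group exceeded the difference between them.

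Another 7 endothelial genes had too few reads to be tested. Cldn5, the dominant claudin of brain endothelium, had 2 and 0 reads in the controls against 1 and 0 with DcpS shRNA. Tie1, a receptor tyrosine kinase of endothelium, had 0 and 0 reads in the controls against 1 and 2 with DcpS shRNA, and its partner Tek, the angiopoietin receptor, had 5 and 3 against 3 and 0. These counts lie near that limit of 3 reads, so no change was detectable at this depth. Flt1, a VEGF receptor that also acts as a decoy, had 4 and 15 reads in the controls against 3 and 6 with DcpS shRNA. Emcn, the sialoglycoprotein endomucin, had 2 to 5 reads in the 4 libraries, and Vwf, the clotting protein von Willebrand factor, had 0 to 5. Ly6c1, a surface protein of brain endothelium with near-identical gene copies, had 1 and 3 reads in the controls and 0 in both DcpS shRNA libraries.

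Per length, the endothelial label was held up by few genes. Reads per kilobase of annotated exon scaled to a common library total (RPKM) in the controls averaged 0.735 for Egfl7, 0.540 for Kdr, 0.338 for Esam and 0.314 for Eng. The defining junction genes Cdh5 and Cldn5 were at 0.0963 and 0.0338 RPKM. Kdr lay at the 11th percentile of RPKM over all genes tested and Cdh5 at the 0.564th. In sum the 14 endothelial genes took 12.4 and 14.6 CPM (reads scaled to a common library total) in the controls against 9.36 and 10.1 with DcpS shRNA. In normalised reads that sum was 246.1 and 288.2 against 185.3 and 201.1. Kdr weighed most in it, and its mean alone went from 96.6 to 57.0. In RNA from whole cultures, fewer cells of a type and less RNA per cell cannot be told apart.

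Pericyte genes moved in both directions, with 1 lower and 1 higher of 7. Pdgfrb, the receptor that pericytes use to answer PDGF-B (chromosome 18, 61045150 to 61085061, plus strand, GRCm38), had 506.4 and 534.3 normalised reads in the controls against 328.9 and 304 with DcpS shRNA. Each group was tight and the groups lay far apart. The mean went from 520.4 ± 19.7 to 316 ± 17.6 (SD, n = 2 per group), which is 60.8% ± 3.39 of the control mean. Pdgfrb fell with a log2 fold change of −0.72 (SE 0.09, limma, adjusted p 9.13e-05), and it was also called by DESeq2 and edgeR and without any 1 library. Fibroblasts express this receptor too.

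Mcam went the other way. It encodes the adhesion molecule CD146, found on pericytes and endothelium and on some neurons (chromosome 9, 44134469 to 44142727, plus strand, GRCm38). The controls had 168.2 and 146.7 normalised reads and the DcpS shRNA libraries 299.8 and 281.6, with no overlap. Its mean went from 157 ± 15.2 to 291 ± 12.9 (SD, n = 2 per group), and it rose with a log2 fold change of 0.88 (SE 0.12, limma, adjusted p 0.000195). As a ratio chosen after the values were seen, Pdgfrb had 3.01 and 3.64 normalised reads for each of Mcam in the controls, but 1.10 and 1.08 with DcpS shRNA. The pericyte genes as a sum hid this: they stood at 101% and 99.1% of the control mean in the controls and at 101.0% and 96.1% with DcpS shRNA.

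Rgs5 and Abcc9 were low and stood below the controls in both DcpS shRNA libraries without passing the test. Rgs5, a regulator of G-protein signalling typical of pericytes, had 27.6 and 19.5 normalised reads in the controls against 9.09 and 8.94 with DcpS shRNA. The groups lay apart, and the log2 fold change was −1.27 (95% confidence interval −2.06 to −0.49), with an adjusted p of 0.0549 that missed the threshold. It passed with edgeR (0.0453) and without a filter on low counts (0.0345). Abcc9, the sulfonylurea receptor subunit of the pericyte potassium channel, had 34.2 and 22.6 in the controls against 16.4 and 13.4 with DcpS shRNA (−0.86, −1.56 to −0.17, adjusted p 0.155).

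The ligand and the remaining pericyte genes did not pass. Pdgfb, the ligand of PDGFRB, had 20.9 and 23.6 normalised reads in the controls against 15.4 and 19.0 with DcpS shRNA (log2 fold change −0.36, 95% confidence interval −1.03 to 0.32). Notch3, the receptor that mural cells need for maturation and that neural progenitors also express, was the most abundant gene of the class by read count. Its controls had 600.5 and 616.3 and its DcpS shRNA libraries 698.7 and 660.4, a small shift with no overlap (0.16, 0.0065 to 0.31, adjusted p 0.248). Vtn, the matrix protein vitronectin, had 168.2 and 135.4 in the controls against 159 and 165.4 with DcpS shRNA, with overlap between the groups (0.10, −0.19 to 0.39).

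**Figure D2:**
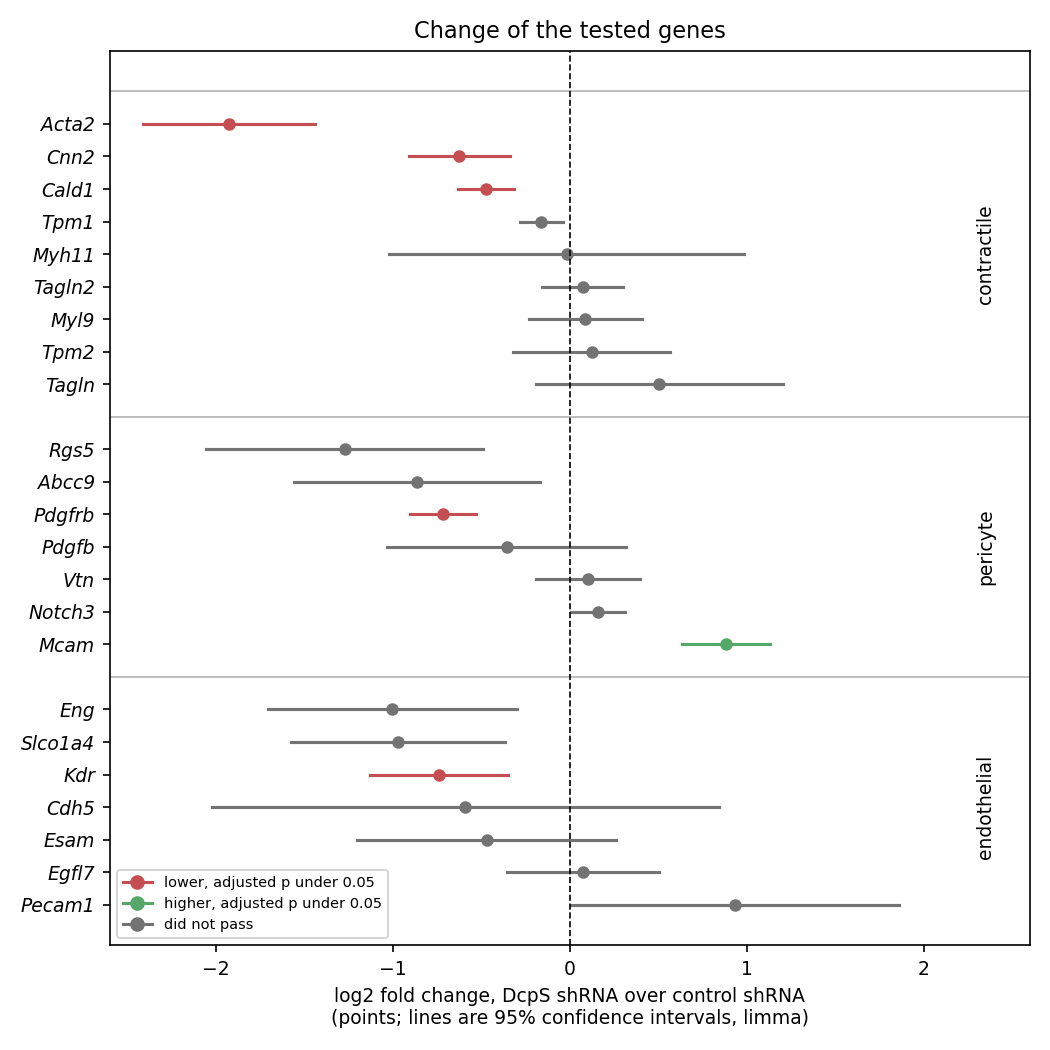
Log2 fold change of DcpS shRNA over control shRNA (horizontal axis) for the 23 tested genes by class, with 95% confidence intervals from limma as lines. Red marks genes that fell, green the gene that rose and grey those that did not pass; Acta2 at −1.93 lies farthest to the left and Pecam1 at 0.93, with a wide interval, farthest to the right.

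The contractile genes did not move as a block. Of the 9 tested, Acta2, Cnn2 and Cald1 fell, 0 rose (4 of the 9 had an unadjusted p under 0.05, all lower, and edgeR and DESeq2 also called 0 higher), and 6 did not pass. The class median was −0.017 on the log2 scale. Acta2, smooth-muscle alpha-actin (chromosome 19, 34241090 to 34255590, minus strand, GRCm38), had the largest change of the 23 tested genes. Its normalised reads were 77.0 and 90.2 in the controls against 23.6 and 19.0 with DcpS shRNA. Both DcpS shRNA libraries were far below both controls. The mean went from 83.6 ± 9.39 to 21.3 ± 3.27 (SD, n = 2 per group), or 25.5% ± 3.91 of the control mean, a log2 fold change of −1.93 (SE 0.23, limma, adjusted p 7.32e-05). Leaving out any 1 library kept it between −2.08 and −1.78, and it stayed called.

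Cnn2 and Cald1, which are less confined to smooth muscle, fell by less. Cnn2, or calponin 2, an actin-binding protein (chromosome 10, 79988584 to 79996062, plus strand, GRCm38), had 165.3 and 184.6 normalised reads in the controls against 115.4 and 110.6 with DcpS shRNA. Its mean was 175 ± 13.6 against 113 ± 3.36 (SD, n = 2 per group), a log2 fold change of −0.62 (SE 0.14, adjusted p 0.0108). That call ended without control 2 (0.104) and with DESeq2 (0.113). Cald1, caldesmon, which holds back actomyosin (chromosome 6, 34598500 to 34775473, plus strand, GRCm38), had 962.5 and 1134 in the controls against 744.1 and 761 with DcpS shRNA. Control 2 was the highest, but the groups did not overlap. The mean of 1048 ± 121 went to 753 ± 11.95 (SD, n = 2 per group), a log2 fold change of −0.47 (SE 0.08, adjusted p 0.00106).

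Several genes of the same contractile programme did not follow. Tagln, transgelin or SM22-alpha, had 13.3 and 17.4 normalised reads in the controls against 21.8 and 22.3 with DcpS shRNA. Both DcpS shRNA values were above both controls, without passing (log2 fold change 0.51, 95% confidence interval −0.19 to 1.21). The annotated exons of Tagln overlap those of Gm48529 and Pcsk7 on the opposite strand, so its reads may include theirs if strand was not used. Exons of Egfl7, Eng, Abcc9, Notch3 and Mcam overlap an opposite-strand gene as well, and those of Egfl7 also Gm20532 on its own strand, so the same limit holds for them. Myl9, the regulatory light chain of smooth-muscle myosin, had 100.7 and 103.6 in the controls against 103.6 and 114 with DcpS shRNA (0.09, −0.23 to 0.41). Myh11, the smooth-muscle myosin heavy chain, had 7.18 to 10.5 in the controls and 7.27 to 10.1 with DcpS shRNA (−0.02, −1.02 to 0.98). These intervals leave room for changes in either direction, widest for Myh11.

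As ratios chosen after the values were seen, Acta2 had 5.79 and 5.18 normalised reads for each of Tagln in the controls, but 1.08 and 0.850 with DcpS shRNA. Against Myl9 the ratios were 0.764 and 0.871 in the controls against 0.228 and 0.167 with DcpS shRNA. Relative to these partners, then, alpha-actin was less abundant with DcpS shRNA. The limit given above for reads of Tagln holds for the ratio to Tagln.

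Tropomyosins, which lie along the actin filament, and transgelin 2 did not pass the test. Tpm1 was the most abundant of the 32 genes, with 1351 and 1309 normalised reads in the controls against 1184 and 1196 with DcpS shRNA. The groups lay apart, but the shift was small (log2 fold change −0.16, 95% confidence interval −0.28 to −0.038, adjusted p 0.133). Tpm2 had 45.6 and 58.5 in the controls against 53.6 and 59.2 with DcpS shRNA (0.12, −0.32 to 0.57). Tagln2, a relative of transgelin found in many cell types, had 217.6 and 232.8 in the controls against 243.5 and 230.2 with DcpS shRNA (0.07, −0.16 to 0.30). Both pairs of groups overlapped.

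The last contractile genes had too few reads to be tested. Cnn1, calponin 1, the smooth-muscle form, had 5 and 5 reads in the controls against 1 and 6 with DcpS shRNA. Actg2, the gamma-actin of visceral smooth muscle, had 2 and 1 reads in the controls against 6 and 7 with DcpS shRNA, so it stood higher where Acta2 stood lower. Actin genes are near-identical in their coding parts, and the treatment of reads matching more than 1 gene is not given in the sources used here, so values of Acta2 and Actg2 are uncertain to that extent.

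Per length, the contractile and pericyte genes overlapped in level. The control means were 10.3 RPKM for Tpm1, 5.46 for Tagln2, 4.79 for Pdgfrb, 4.44 for Myl9, 4.39 for Cald1, 3.80 for Notch3, 3.77 for Vtn, 3.59 for Cnn2, 2.37 for Mcam and 1.92 for Acta2. Genes restricted to smooth muscle or pericytes were lower: Tagln was at 0.390 RPKM, Rgs5 at 0.261, Cnn1 at 0.0911 and Myh11 at 0.0585. With DcpS shRNA, Mcam at 4.38 RPKM stood above Pdgfrb at 2.91, the reverse of their order in the controls, and Acta2 at 0.490 stood below Tagln at 0.560.

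**Figure D3:**
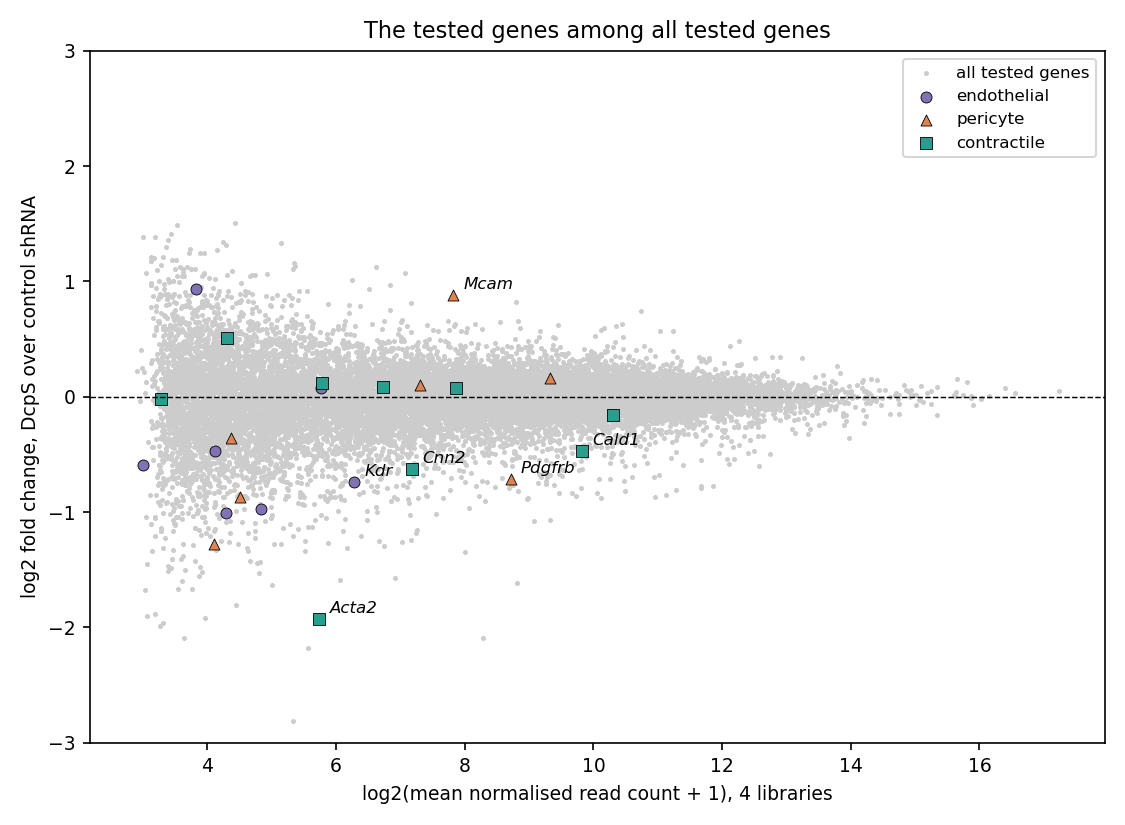
Log2 fold change (vertical axis) against log2 of the mean normalised read count plus 1 over the 4 libraries (horizontal axis) for all 18110 genes tested in grey, with the endothelial, pericyte and contractile genes as circles, triangles and squares. The 6 called genes are named: Mcam lies at a positive value, and Acta2, Pdgfrb, Cald1, Cnn2 and Kdr lie at negative values.

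Serum response factor drives many contractile genes through the CArG box, a DNA site of CC, 6 bases of A or T, and GG, which reads alike on both strands. RefSeq promoter windows (GRCm38.p6, 250 bases before to 50 after the start) were matched by symbol for 23 of the 32 genes, 8 of them contractile. Tagln, Myh11 and Actg2 were the contractile genes without a window, so they were not searched for a box. An exact CArG box was in the window of 2 of these 8 genes, Cnn2 and Myl9, in 0 of 10 endothelial and 0 of 5 pericyte genes, and in 1.81% of all 27025 genes with a window. A box with 1 core base that is not A or T was found in Acta2 and Myl9, 2 of 8, in 5 of 10 endothelial genes, in 0 of 5 pericyte genes and in 9.69% of all. The endothelial genes were Kdr, which fell, Egfl7, Eng and Slco1a4, which did not pass, and Tek, which was not tested. The 30-base sites below are those of contractile genes, the exact boxes of Cnn2 and Myl9 and both boxes of Acta2, and the capitals mark the box.
Cnn2 (chr10:79988534-79988563, plus strand): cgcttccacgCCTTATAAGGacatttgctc
Myl9 (chr2:156775293-156775322, plus strand): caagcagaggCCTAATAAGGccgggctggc
Acta2 first site (chr19:34255438-34255467, minus strand): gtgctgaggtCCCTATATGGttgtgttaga
Acta2 second site (chr19:34255388-34255417, minus strand): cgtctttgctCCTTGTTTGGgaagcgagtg
A box of either kind was thus present in Cnn2, Acta2 and Kdr, which fell, and in Myl9, Egfl7, Eng and Slco1a4, which did not pass. A match describes letters only. Counted from the RefSeq start, the boxes begin at position −56 in Cnn2, −161 in Myl9, and −84 and −34 in Acta2. In GENCODE M21 the Acta2 gene starts further upstream, at 34255590, so that both Acta2 sites lie within its bounds. Whether they lie in an exon was not tested.

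The 3′ UTRs of the members were also searched for the 7-base words ACGTGCA and CACGTGC on the transcript strand, which overlap each other and were taken up with earlier results of these data known. Of the 23 tested members 1 carried a word, Acta2, against 8% of the 13708 tested genes with an annotated 3′ UTR and 33.1% of the 646 such genes that fell. Because those earlier results come from the same libraries, the 33.1% is not an independent result. Acta2 carries both words as CACGTGCA (chromosome 19, 34241118 to 34241125), as does Dcps itself (chromosome 9, 35124756 to 35124763). Among the members that fell 1 of 5 carried a word, or 20%. Both sites are shown so that the letters can be compared. The capitals mark CACGTGCA only, and the t that follows it is the same in both sites as well.
Acta2 3′ UTR site: taaagcatacaCACGTGCAtggatatgcat
Dcps 3′ UTR site: actatcacctgCACGTGCAtttcacagctc
Kdr, Pdgfrb, Cnn2 and Cald1, which also fell, have neither word in their annotated 3′ UTRs. Any part of these letters in the fall of Acta2 was not tested.

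Other genes of the same cells and pathways were read from lists, whose counts stand beside 3.65% lower and 2.14% higher over all genes tested. Of 15 tested further endothelial genes 2 fell and 0 rose by limma (4 had an unadjusted p under 0.05, and edgeR called 2 and DESeq2 1). Both DcpS shRNA libraries lay below both controls for 8 of the 15 and above both for 5, against 24% and 24.4% of all genes tested. Mfsd2a and Slc16a1, with Palmd the genes of highest mean in the list, stood at 107.1% and 90.5% of the control mean without passing. Ets1, a transcription factor of endothelium and other cells, had 124.5 and 133.3 normalised reads in the controls against 61.8 and 70.4 with DcpS shRNA (log2 fold change −0.96, SE 0.16, adjusted p 0.0017). Palmd, or palmdelphin, fell by 0.31 on the log2 scale (adjusted p 0.0287), a call lost without control 1 or DcpS shRNA 2 and with DESeq2. Another 16 genes of that list had too few reads to be tested. The list's median was −0.20.

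Of 15 tested further pericyte and mural genes, 11 did not pass. Both DcpS shRNA libraries lay below both controls for 10 of the 15, against 24% of all genes tested. The median log2 fold change was −0.29, and all 15 values were negative in limma, against 9025 of 18110 over all genes tested. Cd248 (−0.017) was positive in edgeR and DESeq2, and Ndufa4l2 (−0.086) in DESeq2. In this list 4 fell and 0 rose by limma (6 had an unadjusted p under 0.05, edgeR called 4 and DESeq2 2). Ednra, the endothelin receptor of smooth muscle, had 106.4 and 82.0 normalised reads in the controls against 49.1 and 40.2 with DcpS shRNA (−1.06, SE 0.20, adjusted p 0.00417), and lost the call without control 1. Tbx18, a transcription factor of mural cells, had 103.6 and 131.3 in the controls against 60.9 and 55.9 with DcpS shRNA (−0.99, SE 0.18, adjusted p 0.00265). Lamc3, a laminin chain, fell by 0.69 and Gucy1a1, a subunit of the nitric oxide receptor, by 0.32 on the log2 scale, and neither call was kept by DESeq2. Lamc3 also lost it without control 1 and Gucy1a1 without control 2.

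Among 33 tested ligands and receptors of vessel signalling 6 fell and 1 rose. Of the ligands and receptors of transforming growth factor beta and BMP, which promote mural and contractile gene expression, Tgfb3 (log2 fold change −0.81, adjusted p 0.00518), Tgfb1 (−1.03, 0.028) and the receptor Tgfbr2 (−0.65, 0.034) fell. Tgfb2 (−0.13, 0.50), the more abundant receptor Tgfbr1 (0.11, 0.317), Acvrl1 and Bmpr2 did not pass. Angpt1, the angiopoietin made by mural cells for the receptor Tek, fell by 0.56 (adjusted p 0.0316), and Jag1, a Notch ligand, by 0.25 (0.0428). Nrp1, a VEGF co-receptor on which Kdr relies, fell by 0.29 (adjusted p 0.00485), while Plxnd1, a semaphorin receptor of endothelium and neurons, rose by 0.75 on the log2 scale (adjusted p 9.01e-07). With DESeq2, 2 of the 7 calls remained, Nrp1 and Plxnd1. Without control 1 the calls of Tgfb1, Tgfbr2, Angpt1 and Jag1 ended, as they did without control 2, and without DcpS shRNA 2 those of Tgfbr2, Angpt1 and Jag1. Jag1 lost it without DcpS shRNA 1 as well. The list's median was −0.069.

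Of 37 tested other genes of contraction, actin binding and serum response factor, 2 fell and 1 rose, near the shares of 3.65% and 2.14% over all genes tested, with a median of −0.023. Ccn2, a matricellular gene, fell by 0.77 on the log2 scale (adjusted p 0.0101), a call lost without control 2 and with DESeq2. Actn1, the actin crosslinker alpha-actinin 1, fell by 0.29 (adjusted p 0.00672), a call lost without control 2. Fhl1, a LIM-domain protein, rose by 0.25 (0.028), a call lost without control 1 or DcpS shRNA 2 and with DESeq2. Actb and Actg1, the abundant cytoplasmic actins, had log2 fold changes of −0.021 and 0.15 without passing, and Srf and its cofactors Mrtfa and Mrtfb did not pass. Myocd, the cofactor that directs smooth-muscle genes, had 1 read in control 1 and 0 in the other libraries.

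Most of the tested fibroblast markers stood lower with DcpS shRNA. Of 19 tested fibroblast markers 13 were lower and 0 higher by limma (14 had an unadjusted p under 0.05, edgeR called 13 and DESeq2 9), and their summed level was 96.5% and 103.5% of the control mean in the controls, against 62.7% and 60.1% with DcpS shRNA. Col1a1, the main fibrillar collagen, had 2484 and 2652 normalised reads in the controls against 1475 and 1331 with DcpS shRNA. The 6 that did not pass were Crabp2 at 142.9% of the control mean, Thy1 at 94.9%, Fbln1 at 91.8%, Ptgds at 86.4%, Twist1 at 72.9% and Aldh1a2 at 65.6%. The markers S100a4, Twist2 and Slc22a6 had 0 to 2 reads in every library. Fn1, Col3a1 and Col1a2, the genes with the most reads, weighed most in the summed level. Pdgfrb at 60.8% of control stood near this sum, Acta2 at 25.5% below it and Mcam at 185% above. What part fibroblast RNA has in the changes of Pdgfrb, Acta2, Cnn2 and Cald1 was not tested.

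Markers of astrocytes and radial glia did not move together: 3 of 12 tested genes fell and 1 rose. Of the 12 log2 fold changes 6 were negative and 6 positive. Gfap, an intermediate filament, fell to 51.1% of the control mean (limma, adjusted p 0.0241) and Aqp4, a water channel, to 45.8% (0.0119). Gja1, a gap junction protein, fell to 62.9% (8.15e-05). Aldh1l1, an astrocyte enzyme, stood at 74.1% without passing. Slc1a2, Slc1a3 and Sox9 stood at 85.7%, 92.0% and 103.7%, also without passing. S100b had too few reads to be tested, with 3 and 6 in the controls against 8 and 6 with DcpS shRNA. Nes, an intermediate filament of radial glia, rose to 120.9% (adjusted p 0.0108). Of these calls Gja1 alone was kept with DESeq2 and without each single library: Gfap lost it without control 2 or either DcpS shRNA library, Aqp4 with DESeq2 and without control 2 or DcpS shRNA 1, and Nes without either control. The sum of this list, 101.7% and 102.2% with DcpS shRNA, was carried by Vim, Fabp7 and Nes, the genes with the most reads. What part astrocyte RNA has in the members' changes was not tested. For microglia and macrophages the summed levels with DcpS shRNA were 88.7% and 94.3%, with 0 of 10 called by limma, edgeR or DESeq2 and 0 at an unadjusted p under 0.05. Red blood cell markers ranged from 64.7% to 135.3% in the controls and from 97.3% to 142.7% with DcpS shRNA, so their groups overlapped.

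**Figure D4:**
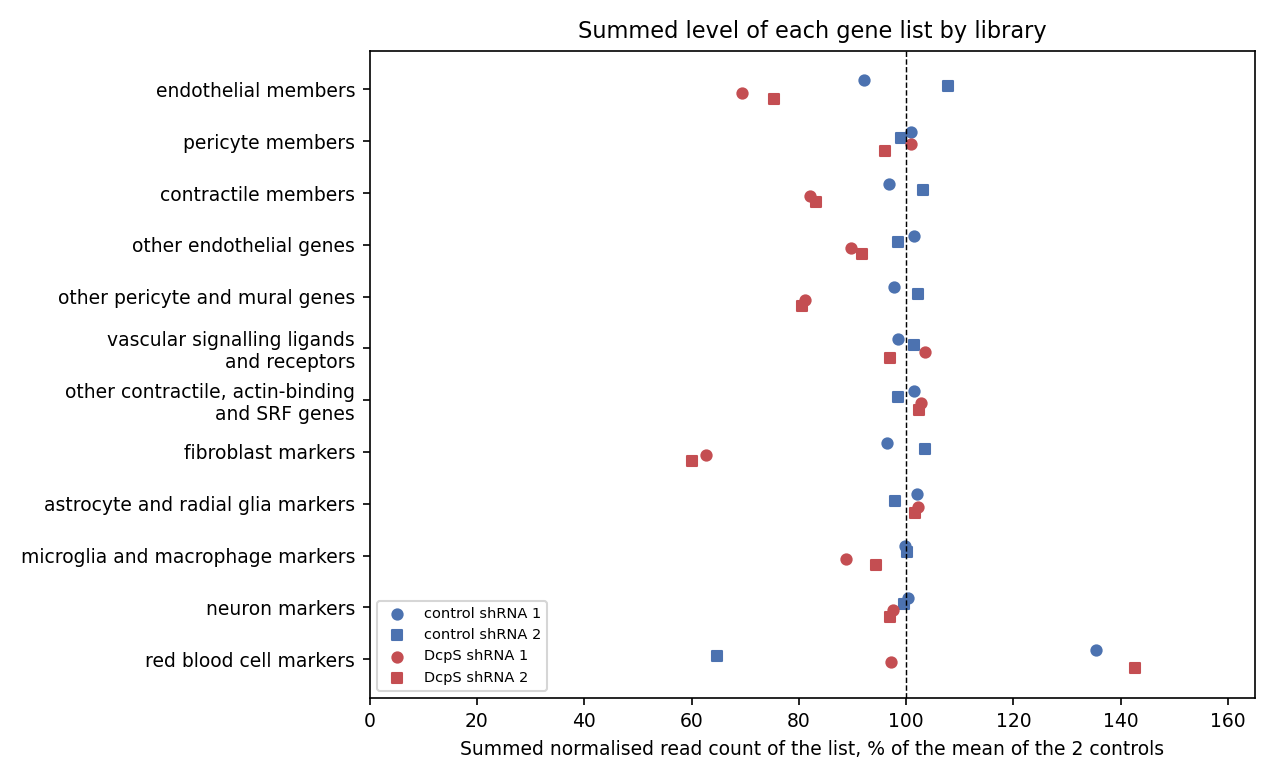
Summed normalised read count of each gene list in each library (horizontal axis, percent of the mean of the 2 controls), with controls in blue and DcpS shRNA in red. Fibroblast markers with DcpS shRNA lie at 60.1% and 62.7%, the endothelial genes at 69.4% and 75.3%, the contractile genes at 82.2% and 83.3%, and the pericyte genes at 96.1% and 101.0%, beside 99.1% and 101% in the controls.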

How the data were processed

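The deposited values are a signal: read counts per gene that the authors divided by a size factor per library. Per the submitters' processing notes, HISAT2 2.2.0, SAMtools 1.3.1, Picard, featureCounts and DESeq2 were used with build GRCm38. Every value was a whole multiple of its column's smallest positive value (tolerance 0.001), which gave back whole reads for 100% of values. The main test was limma 3.58.1 on log2(normalised reads + 1), with an intensity trend, robust empirical Bayes and group as the only term, over genes passing filterByExpr of edgeR 4.0.16 (minimum count 10). Fold changes on this scale understate low genes. p-values are two-sided and adjusted over all genes tested. An exact permutation test of 2 against 2 cannot go below 0.333, so gene-wise tests rest on spread pooled across genes. Alternatives were edgeR and DESeq2 1.42.0 on recovered reads and other scalings, pseudocounts, filters and left-out libraries. Scripts were tested on simulated data. Members, lists and tests were chosen with earlier results of these data known. Of other lists, called genes (at most 6 per direction) and the 3 of highest mean were named or tracked. Exon lengths and UTRs came from GENCODE M21.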

Additional observations from a re-analysis of the deposited data

How the results depend on the processing

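The 6 called members kept their direction under all 15 alternatives. Acta2, Pdgfrb, Mcam and Cald1 stayed called under all but limma with neither trend nor robust estimation, and Kdr and Cnn2 were also lost with DESeq2 and without control 2. That plain limma called 0 genes in the whole table and 0 endothelial, 0 pericyte and 0 contractile members (2538, 4, 4 and 4 at an unadjusted p under 0.05), against 1048, 1, 2 and 3 in the main test. DESeq2 called 448 genes and 0 endothelial members (1590 and 2 at an unadjusted p under 0.05), while 13 of the 23 tested members had an adjusted p there. Endothelial calls numbered 2 without a filter on low counts and in limma and edgeR with the replicate block. With 1 library left out, called genes ranged from 594 to 1439 and endothelial calls from 0 to 2 (3 at an unadjusted p under 0.05 by limma where it was 0). The class medians then ranged from −0.92 to −0.38 for endothelial, −0.50 to −0.21 for pericyte and −0.18 to 0.032 for contractile members. A group left with 1 library is assumed to vary like the other. With a mean of at least 50 normalised reads the pericyte median was 0.13 and the contractile median −0.16, from fewer genes.

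The replicate numbers were shared by the groups in the titles, but the differences between numbers 1 and 2 correlated at only 0.043 across genes between the groups. The replicate block raised the count of calls to 1626 in limma and 1385 in edgeR, and with it Slco1a4 and Rgs5 passed (limma, adjusted p 0.0191 and 0.0183).

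Signs turned only where nothing was called. With 1 library left out, the log2 fold change ranged from −1.58 to 0.40 for Cdh5, −0.0081 to 0.16 for Egfl7, −0.052 to 0.26 for Vtn, −0.26 to 0.23 for Myh11 and −0.052 to 0.30 for Tpm2. It ranged from −0.023 to 0.12 for Bmpr2, −0.16 to 0.10 for Notch1, −0.087 to 0.046 for Actb, −0.058 to 0.062 for Fabp7, −0.025 to 0.068 for Vim, −0.32 to 0.077 for Cd68, −0.056 to 0.012 for Tubb3 and −0.084 to 0.031 for Map2. For the globins Hba-a1, Hba-a2 and Hbb-y it ranged from −0.19 to 0.71, −0.078 to 0.97 and −0.26 to 0.94. Fabp7 also turned with TMM scaling (−0.0023), with edgeR (−0.0033) and with the replicate block in edgeR (−0.0029). The cause was not tested. Depth limits the 9 untested members and the tested ones under about 30 normalised reads, whose intervals span more than a 2-fold range.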
